A study of Mus musculus with 15 samples.

Results

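Among the 2545 liver genes of the deposited table, 42 carry the symbols of chemokines, cytokines, their receptors, or interferon-related proteins, and these 42 genes are described here. They were taken by symbol alone, as every name that begins with Ccl, Ccr, Cxcl, Cxcr, Cx3c, Il and a digit, Tnf, Ifi, Ifn, Irf, Isg, Oas, or Gbp and a digit, with Il4i1 left out. The prefixes gave 12 chemokine ligands, 7 chemokine receptors, 10 interleukin receptors (the interleukin-1 receptor antagonist Il1rn and the interferon lambda receptor Il28ra counted with them), 1 interleukin, 3 TNF ligands, 2 TNF receptors, 1 interferon, 2 Irf symbols, 3 Ifi or Gbp symbols, and Ccrn4l. Ccrn4l encodes nocturnin, an enzyme of nicotinamide cofactor metabolism, and was taken only because its old symbol begins like that of a chemokine receptor. Irf2bp2 is likewise not an interferon regulatory factor but a protein that binds one.

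Livers came from female C57BL/6J mice given a high-fat diet (45% of calories from fat) from 8 weeks of age and ovariectomized at 10 weeks, and all 5 groups share the diet and the surgery. The study treated 8 ovariectomized mice per group and selected 3 of each group for sequencing, by a rule that is not given. Treatment for 6 weeks was with vehicle (Veh, a mixture of DMSO, ethanol and saline), 17β-estradiol (E2, 5 µg/kg/day), or conjugated estrogens (CE, 2.5 mg/kg/day). Other mice were given bazedoxifene (BZA, 3 mg/kg/day), a selective estrogen receptor modulator, or CE+BZA, whose doses the labels do not list separately. No group kept its ovaries or ate a standard diet, so Veh is a model of estrogen loss with diet-induced fatty liver and not of a normal liver. Each value is the mRNA of 1 mouse from whole liver tissue, where fewer cells of a type and less RNA per cell cannot be told apart.

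Chemokines are small secreted proteins that bind receptors on leukocytes and direct them into tissue. Interleukin-1 and the TNF ligands act on hepatocytes and resident macrophages through NF-kappaB, which turns on acute-phase proteins and neutrophil-attracting chemokines such as Cxcl1, whereas interferons act through STAT and IRF proteins on genes such as the guanylate-binding proteins (Gbp). In fatty liver, these pathways accompany the recruitment of monocytes, neutrophils and lymphocytes.

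The promoters of Cxcl1, Ccr6, Gbp1 and Ccl22 are shown because the results below turn on these genes and because 3 of them hold a letter pattern of the pathways just named. The sequences are from RefSeq (GRCm38.p6), and 34 of the 42 genes had a promoter there, taken as the 250 bases before the start of the gene. Capitals mark the matches to the motif named on each line, and the Ccl22 stretch holds none of the 4 motifs searched.
Cxcl1, NF-kappaB site, chr5:90891125-90891224, plus strand: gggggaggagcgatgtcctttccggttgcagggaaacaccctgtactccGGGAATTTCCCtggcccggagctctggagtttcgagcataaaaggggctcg
Ccr6, gamma-activated sequence (2 matches), chr17:8235853-8236012, plus strand: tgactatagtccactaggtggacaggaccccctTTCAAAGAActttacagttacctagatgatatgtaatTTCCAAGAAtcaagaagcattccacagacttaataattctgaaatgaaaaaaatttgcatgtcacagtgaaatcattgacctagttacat
Gbp1 (RefSeq symbol Gbp2b), interferon-stimulated response element on the opposite strand, chr3:142594667-142594766, plus strand: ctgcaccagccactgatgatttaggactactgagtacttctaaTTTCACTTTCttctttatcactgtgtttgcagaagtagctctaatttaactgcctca
Ccl22, no match, chr8:94745534-94745683, plus strand: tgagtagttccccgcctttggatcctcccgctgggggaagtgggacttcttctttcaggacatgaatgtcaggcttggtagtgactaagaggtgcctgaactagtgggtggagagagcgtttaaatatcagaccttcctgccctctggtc
The capitals of Cxcl1 are 2 overlapping matches, 1 on each strand.

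The 4 motifs were searched on both strands of these promoters. The NF-kappaB site was found in 5 of the 34 genes (14.7%; Ccr1, Ccr3, Ccr6, Cxcl1 and Il1r1), against 8.23% of all 27025 RefSeq genes with a promoter. The gamma-activated sequence TTCNNNGAA, a site of STAT proteins, was found in 3 (Ccr6, Il1f9 and Il1r2; 8.82% against 8.13%), and the core of the interferon-stimulated response element, in 1 (Gbp1; 2.94% against 3.46%). The palindromic estrogen response element was found in 0 of the 34 and in 0.0666% of all genes. Ccr6 has 2 promoters in RefSeq, and its NF-kappaB match lies in the one not printed. A match is a description of letters and not of a binding site.

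The table holds log2 values set against the median that each gene has among the 15 mice, so that 0 is the middle mouse, 1 is a doubling, and levels cannot be compared between genes. Reads per mouse are not in the table. Low values had been raised to a floor, and 14 of the 42 genes (1045 of 2545 in all) had at least 2 mice at it, so that a fold change of such a gene understates the difference. One read was estimated at 0.838 to 1.139 times the floor, but only steps near the floor were searched, so the estimate had to lie near it. At the best step of each mouse, 50.8% to 75.9% of the low values were whole numbers of reads. The study's quantification also considered partial reads, so the number of reads behind a low value is not known. In every one of the 2545 genes, and so in all 42, the mean of at least 1 treatment was more than 1 log2 unit away from that of Veh. Differences between groups were therefore a condition of being in the table, and counts of genes are given beside the same share of all its genes. The p-values and false discovery rates of differences from Veh were computed after that selection and not corrected for it, so they can be too small. The libraries of 2 mice stood apart: in CE mouse 3, the 22 listed of 41 neutrophil markers averaged 4.70, against -0.70 to 0.90 in the other 14 mice, and in BZA mouse 3, the 11 listed of 13 adipocyte markers averaged 3.23, against -0.60 to 0.58. Results are therefore also given without CE mouse 3 where that changed them.

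**Figure D1:**
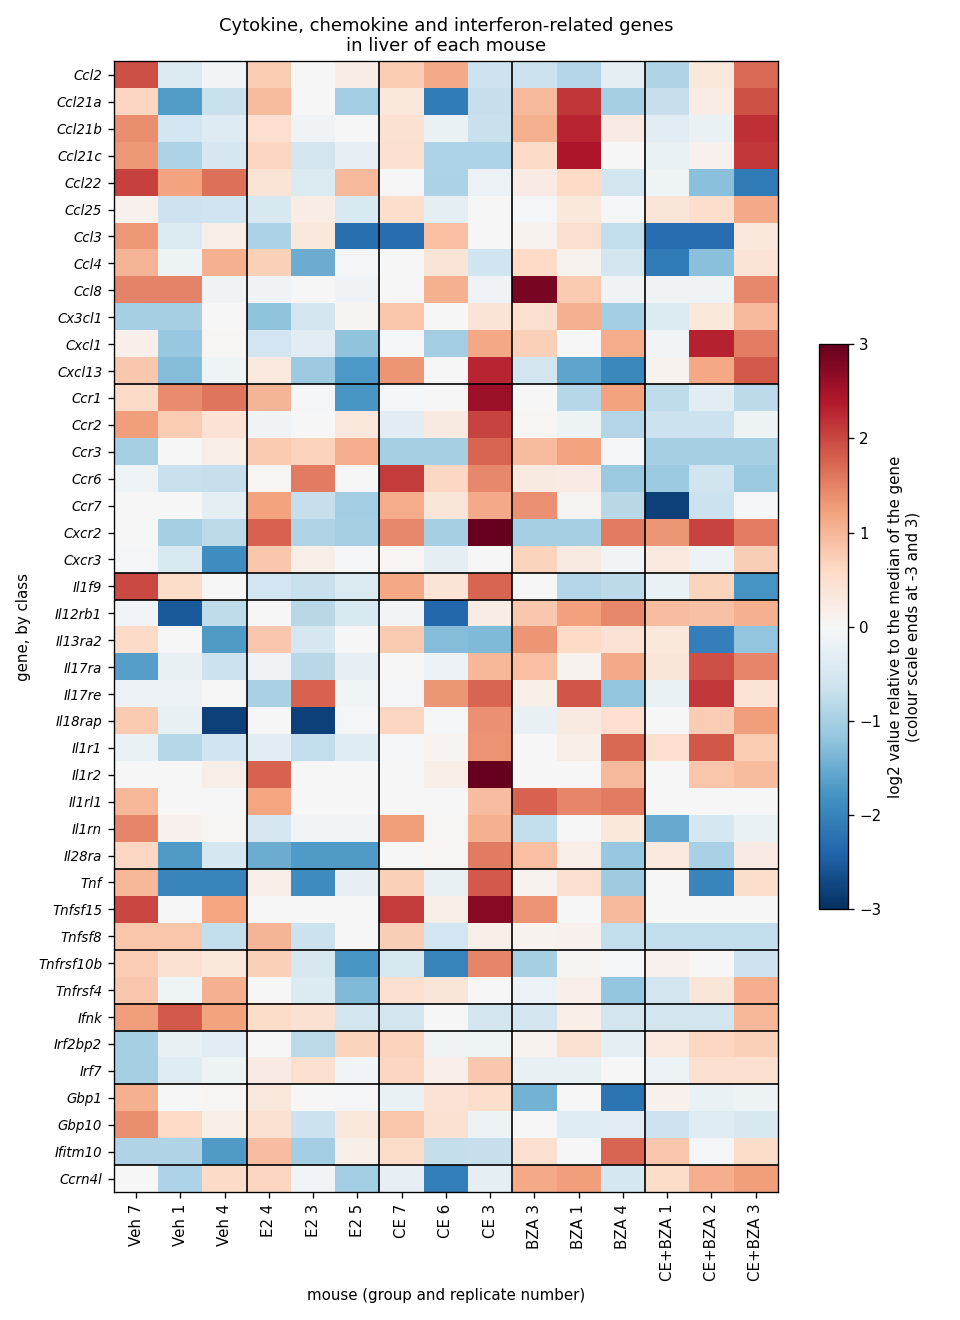
Log2 values of the 42 genes (rows, grouped by class between the black lines) in each of the 15 mice (columns, by group and replicate number), relative to the median of each gene, with the colour scale ending at -3 and 3. Ccl22 and Ifnk are red in the 3 Veh mice and paler or blue in nearly all treated mice, and Cxcr2 and Il1r2 are darkest in CE mouse 3.

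The study compared each treatment with Veh and set CE+BZA beside its parts, with a fold change above 2 and a false discovery rate (FDR) under 0.05 as its rule. By limma over all 2545 genes, 0 of the 42 passed this rule in any comparison. The share of all genes that passed was as low, at 0.196% for E2, 0.157% for CE, 0% for BZA, 0.118% for CE+BZA, and 0.236% for the mean of the 4 treatments. The caption of the study's heat map gives a fold change above 2 with a p under 0.05 and does not say whether p was adjusted. Here, a fold change above 2 with an unadjusted p under 0.05, called the unadjusted threshold below, is used to describe the genes. None of the differences from Veh below has an FDR under 0.05.

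At the unadjusted threshold, 3 of the 42 genes passed for E2 (7.14%, against 15.1% of all genes), 0 higher (6.52% of all genes) and 3 lower (8.61%). For CE, 4 passed (9.52% against 18.6%), 2 higher (10.1%) and 2 lower (8.45%). For BZA, 8 passed (19% against 16.4%), 4 higher (8.92%) and 4 lower (7.47%). CE+BZA had the highest count, with 14 passing (33.3% against 21.1%), 7 higher (11.6%) and 7 lower (9.55%). The mean of the 4 treatments differed for 5 genes (11.9% against 14.4%), 3 higher (6.6%) and 2 lower (7.82%). The 4 treatments share the 3 Veh mice, so their calls are not independent of each other.

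These counts moved with single mice. For CE+BZA, 9 genes passed without Veh mouse 1, 6 without CE+BZA mouse 1, 9 without CE+BZA mouse 2, and 15 without CE mouse 3. For E2, 6 passed without CE mouse 3. For CE, 7 passed without Veh mouse 7, 8 without CE mouse 6, and 4 without CE mouse 3. For the mean of the 4 treatments, 8 passed without Veh mouse 7, without CE mouse 6, or without CE mouse 3. Under quantile normalization, the split for E2 was 1 higher and 3 lower, and with each mouse centered on its median it was 1 and 3 for E2 and 1 and 2 for CE. Of the 14 genes past the threshold for CE+BZA, 2 (Ccl22 and Il17ra) still passed whichever of the 15 mice was left out, as did 3 of 8 for BZA (Ifitm10, Ifnk and Il12rb1), 3 of 4 for CE (Ccl22, Ccr6 and Ifnk), and 0 of 3 for E2.

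Groups that did not overlap, with all mice of one above all mice of the other, were counted as well. Against Veh, 3 of the 42 genes were higher in all E2 mice (10.3% of all genes) and 5 lower (12.4%), 7 were higher in all CE mice (13%) and 2 lower (12.3%), 5 were higher in all BZA mice (10.5%) and 5 lower (11.8%), and 8 were higher in all CE+BZA mice (14.8%) and 7 lower (13.7%). Between CE+BZA and the other treatments, 2 genes were higher (10.9%) and 7 lower (9.82%) than in all CE mice. Against all BZA mice, 2 were higher (7.15%) and 4 lower (5.5%), and against all E2 mice, 7 were higher (11.6%) and 4 lower (8.49%). No gene of the 42 was higher in all 12 treated mice than in all Veh mice, against 1.26% of all genes.

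**Figure D2:**
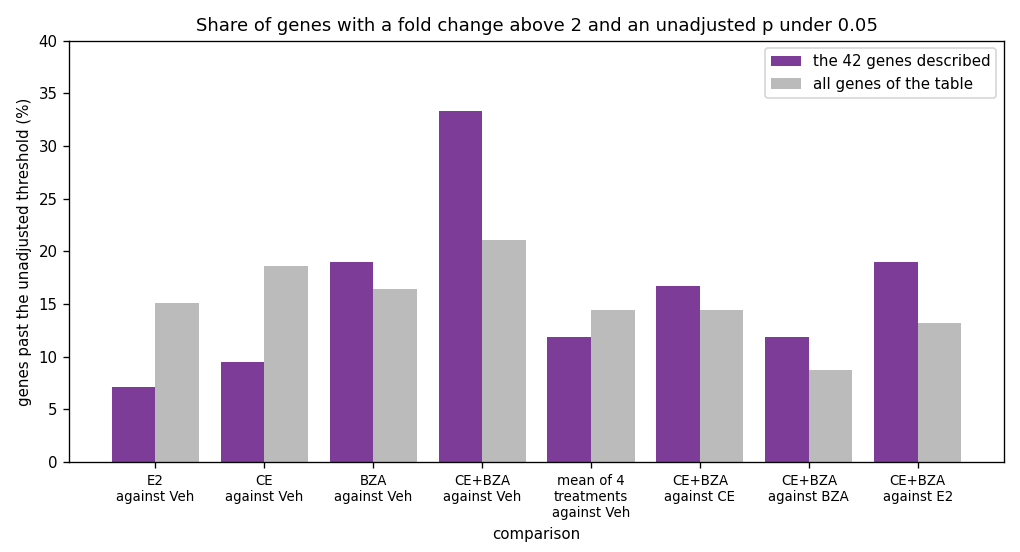
Percent of the 42 genes (purple) and of all 2545 genes (gray, all genes of the table) with a fold change above 2 and an unadjusted p under 0.05, for 8 comparisons. The purple bar is lower than the gray one for E2 (7.14 against 15.1) and CE (9.52 against 18.6), and higher for CE+BZA against Veh (33.3 against 21.1).

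Below, the values of a gene are given in the order of mice 7, 1 and 4 for Veh, 4, 3 and 5 for E2, 7, 6 and 3 for CE, 3, 1 and 4 for BZA, and 1, 2 and 3 for CE+BZA. Differences are log2 differences of group means with the standard error (SE) of limma, and each group has n = 3.

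Of the chemokine ligands, Ccl22 showed the lowest p of all 42 genes. Ccl22 is made by dendritic cells and macrophages and attracts regulatory and type 2 helper T cells through the receptor CCR4. Its values were 2.06, 1.21 and 1.65 for Veh, 0.41, -0.42 and 0.96 for E2, 0.00, -0.94 and -0.18 for CE, 0.24, 0.59 and -0.56 for BZA, and -0.12, -1.26 and -2.11 for CE+BZA. All 12 treated mice lay below all 3 Veh mice, which held for 2 of the 42 genes (4.76%) and for 2.32% of all genes. The difference from Veh was -1.32 (SE 0.58) for E2, -2.01 (SE 0.58) for CE, and -1.55 (SE 0.58) for BZA. It was -2.80 (SE 0.58) for CE+BZA, a level 6.98-fold lower, with an FDR of 0.0562 by limma. For the mean of the 4 treatments, the difference was -1.92 (SE 0.46, FDR 0.0906 by limma).

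Over the alternatives, the FDR of Ccl22 for CE+BZA by limma ranged from 0.0128 to 0.532, and it was below 0.05 under 6 of them. It was 0.0128 by limma after quantile normalization and 0.0225 without the genes at the floor, but 0.206 without Veh mouse 7, 0.168 without CE+BZA mouse 3, and 0.532 with the replicate number as a block. The unadjusted call for E2 was lost without Veh mouse 7 (-1.11), Veh mouse 4 (-1.32), E2 mouse 4 (-1.37), or E2 mouse 3 (-0.95), and that for BZA without Veh mouse 7 (-1.34) or BZA mouse 4 (-1.22). The 9 listed of 44 macrophage, monocyte and dendritic cell markers averaged -0.27 to 1.43 in the Veh mice, -0.85 to 0.11 for E2, -0.44 to 1.16 for CE, 0.12 to 0.30 for BZA, and -0.67 to -0.10 for CE+BZA. Of the 9, 2 were lower than for Veh in each treatment, and 1 was higher for CE and 1 for BZA. Of all genes, 8.61% were lower for E2, 8.45% for CE, 7.47% for BZA and 9.55% for CE+BZA. The shares higher were 10.1% for CE and 8.92% for BZA. The part of such cells in the values of Ccl22 was not tested.

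Cxcl1, a ligand of the neutrophil receptor CXCR2, was at 0.14, -1.14 and 0.03 for Veh, -0.58, -0.32 and -1.20 for E2, -0.06, -1.03 and 1.15 for CE, 0.71, 0.00 and 1.12 for BZA, and -0.08, 2.31 and 1.54 for CE+BZA. CE+BZA mice 2 and 3 were the highest of the 15, while CE+BZA mouse 1 lay among the Veh mice. The difference from Veh for CE+BZA was 1.58 (SE 0.67) and that from E2 was 1.96 (SE 0.67), and both passed the unadjusted threshold. The difference from Veh was lost without Veh mouse 1 (1.17), CE+BZA mouse 2 (1.05), or CE+BZA mouse 3 (1.44), and that from E2 without CE+BZA mouse 2 (1.43).

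Cxcl13 attracts B cells through CXCR5. It was at 0.81, -1.29 and -0.12 for Veh, 0.28, -1.10 and -1.72 for E2, 1.32, 0.00 and 2.30 for CE, -0.56, -1.58 and -1.94 for BZA, and 0.10, 1.16 and 1.83 for CE+BZA. The CE and CE+BZA mice were all above the BZA mice, and no treatment passed against Veh, whose mice spread over the range between. CE+BZA was higher than BZA by 2.39 (SE 0.73), a 5.24-fold difference that passed whichever mouse was left out, and higher than E2 by 1.87 (SE 0.73). The latter was lost without E2 mouse 3 (1.75), E2 mouse 5 (1.44), or CE+BZA mouse 3 (1.47).

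Ccl25, a chemokine of thymus and gut that acts on CCR9, was higher for CE+BZA than for Veh by 1.05 (SE 0.46), with values of 0.36, 0.53 and 1.14 against 0.12, -0.62 and -0.61. Ccl4, a chemokine made by activated macrophages and lymphocytes, was lower for CE+BZA by -1.64 (SE 0.68), at -2.11, -1.26 and 0.40 against 1.03, -0.16 and 1.07. CE+BZA mouse 3 overlapped the Veh mice for Ccl4, whereas the groups did not overlap for Ccl25. Each call was lost in 4 of the 15 fits that left out 1 mouse, at 0.81 to 1.12 for Ccl25 and at -1.50 to -1.08 for Ccl4. Ccl25 overlaps Elavl1 on the other strand, and whether the reads were counted by strand is not given in the sources used here.

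The other 7 ligands (Ccl2, Ccl3, Ccl8, Ccl21a, Ccl21b, Ccl21c and Cx3cl1) passed in no comparison. Ccl2, the main attractant of monocytes, was at 1.93, -0.43 and -0.08 for Veh and at -0.90, 0.33 and 1.70 for CE+BZA. The spread within each of these groups exceeded the difference between them, which was -0.10 (SE 0.71). Ccl21a, Ccl21b and Ccl21c, which encode ligands of CCR7 and have near-identical sequences, moved together over the mice, with their highest values in BZA mouse 1 (2.13, 2.28 and 2.44) and CE+BZA mouse 3 (1.91, 2.19 and 2.12). Reads of these 3 genes could be split between them, so they are not independent observations. The median difference of the 12 ligands from Veh was 0.57 for CE+BZA and -0.26 for both E2 and CE, against 0.08, 0.00 and 0.06 for all genes. These medians moved with single mice: that for CE+BZA was -0.19 without CE+BZA mouse 3, and that for CE was 0.35 without Veh mouse 7.

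Among the chemokine receptors, Ccr6 was the one that passed for CE. Ccr6 is the receptor for CCL20 on B cells, on helper T cells that make IL-17, and on some dendritic cells, and its promoter stretch with 2 gamma-activated sequences is printed above. Its values were -0.13, -0.66 and -0.69 for Veh, 0.06, 1.56 and 0.00 for E2, 2.09, 0.63 and 1.45 for CE, 0.27, 0.24 and -1.12 for BZA, and -1.12, -0.59 and -1.12 for CE+BZA, where -1.12 is its floor. The 3 CE mice were above all 3 Veh mice and all 3 CE+BZA mice. CE exceeded Veh by 1.88 (SE 0.57, FDR 0.18 by limma), and CE+BZA was lower than CE by -2.33 (SE 0.57, 5.04-fold, FDR 0.133 by limma). Both differences passed the unadjusted threshold whichever mouse was left out, CE mouse 3 included. The highest Ccr6 value of any mouse was 9.24 times the floor, so these differences too rest on low values. CE+BZA was also lower than E2, by -1.49 (SE 0.57), a call lost without E2 mouse 3 (-0.97).

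For Ccr6, the sum of the CE and BZA differences from Veh exceeded that of CE+BZA. The departure from additivity was -2.62 (SE 0.80, FDR 0.256 by limma), and it too passed at an unadjusted p under 0.05 whichever mouse was left out. The 12 listed of 33 B cell and plasma cell markers averaged 0.86 to 1.27 for CE, -1.19 to 0.26 for Veh, -0.27 to 1.72 for BZA, and -1.05 to 0.10 for CE+BZA. For E2, they averaged -0.51 to 0.37. Higher than for Veh at the unadjusted threshold were 1 of the 12 for E2, 4 for CE, 2 for BZA and 1 for CE+BZA. Of all genes, 6.52%, 10.1%, 8.92% and 11.6% were higher. For CE+BZA, 1 of the 12 was lower (9.55% of all genes). Ccr6 and this list were thus both higher in all 3 CE mice than in all Veh and CE+BZA mice. In other mice they parted. E2 mouse 3 had Ccr6 at 1.56 with a list mean of 0.05, and BZA mouse 3 had the highest list mean, 1.72, with Ccr6 at 0.27. The part of B cells in the values of Ccr6 was not tested.

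Ccr7 guides lymphocytes and dendritic cells to lymph nodes. It was at 1.11, 0.37 and 1.13 for CE and at -2.80, -0.64 and -0.04 for CE+BZA, with 0.00, 0.00 and -0.30 for Veh. CE lay above both other groups, and CE+BZA mouse 1 was far below the rest of its group. CE+BZA was lower than CE by -2.03 (SE 0.74), and by -1.20 without CE+BZA mouse 1, which ended the call. The departure from additivity was -2.33 (SE 1.05) and was lost in 8 of 15 fits that left out 1 mouse, at -2.39 to -1.51, CE mouse 3 among them (-2.20).

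The genes of 3 monocyte and eosinophil receptors lie side by side on chromosome 9, Ccr1 and Ccr3 53.3 kb apart and Ccr3 and Ccr2 70.3 kb apart. Ccr1 was at 0.56, 1.41 and 1.59 for Veh, -0.06, 0.00 and 2.57 for CE, and -0.77, -0.32 and -0.80 for CE+BZA. Ccr2, which brings monocytes out of the marrow, was at 1.25, 0.75 and 0.43 for Veh, -0.33, 0.27 and 2.04 for CE, and -0.65, -0.64 and -0.16 for CE+BZA. CE mouse 3 held the highest value of both genes, and all CE+BZA mice were below all Veh mice. For Ccr2, so were all E2 mice (-0.12, 0.00 and 0.33) and all BZA mice (0.03, -0.16 and -0.89), though neither group passed. For Ccr1, E2 (1.03, -0.07 and -1.75) and BZA (0.02, -0.86 and 1.22) overlapped Veh. The differences for CE+BZA were -1.82 (SE 0.78) for Ccr1 and -1.30 (SE 0.56) for Ccr2. They were lost in 5 and 4 of the 15 fits without 1 mouse, at -1.82 to -1.62 and at -1.33 to -1.08.

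Ccr3, the eotaxin receptor of eosinophils, was at its floor of -0.99 in all 3 CE+BZA mice and in CE mice 7 and 6. It was at 0.79, 0.69 and 1.08 for E2, at 0.95, 1.22 and -0.03 for BZA, at 1.74 for CE mouse 3, and at -0.99, 0.00 and 0.18 for Veh. CE+BZA was lower than E2 by -1.84 (SE 0.65), which passed whichever mouse was left out, and lower than BZA by -1.70 (SE 0.65), which was lost without BZA mouse 3 (-1.59) or BZA mouse 1 (-1.45). The highest Ccr3 value of any mouse was 6.64 times the floor, so these differences rest on values near the floor.

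Cxcr2, the main chemokine receptor of neutrophils, had the widest range of the 42 genes. It was at 0.00, -0.99 and -0.82 for Veh, 1.76, -0.89 and -0.99 for E2, 1.43, -0.99 and 4.69 for CE, -0.99, -0.99 and 1.56 for BZA, and 1.31, 2.02 and 1.55 for CE+BZA, with the floor at -0.99. The value in CE mouse 3 was 51.5 times the floor and went with the neutrophil markers of that mouse. All 3 CE+BZA mice were above the Veh mice, yet the difference of 2.23 (SE 1.10) did not pass. In CE+BZA, the neutrophil list averaged -0.61, 0.90 and 0.78, against -0.54 to -0.10 in the Veh mice. By the unadjusted threshold, 2 of its 22 listed genes were higher than for Veh and 0 lower (against 11.6% and 9.55% of all genes). Their part in the values of Cxcr2 for CE+BZA was not tested. The 7th receptor, Cxcr3 of T cells and NK cells, passed in no comparison.

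**Figure D3:**
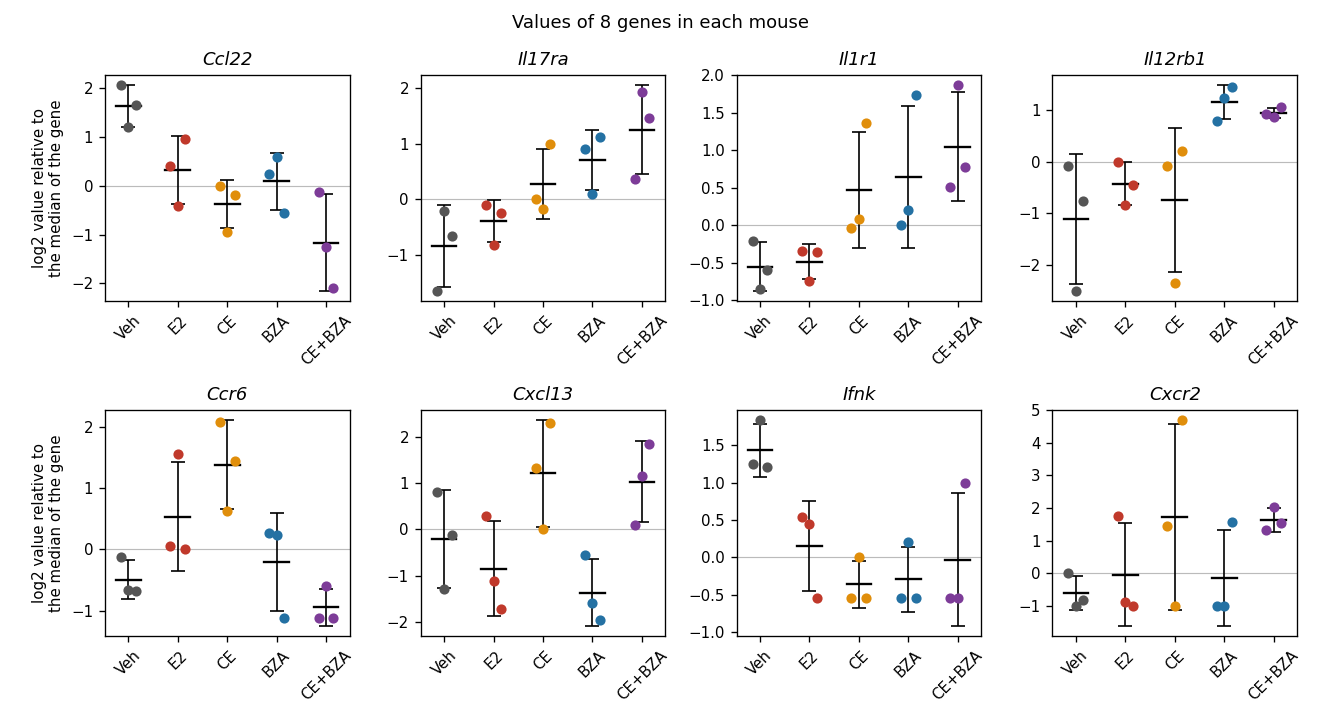
Log2 values of 8 genes (relative to the median of each gene) by group, with 1 point per mouse, the horizontal bar at the group mean, and the whiskers at 1 SD (n = 3). The 3 Veh points lie above the 12 treated points for Ccl22 and Ifnk, the 3 CE points lie above Veh and CE+BZA for Ccr6, and 1 CE mouse reaches 4.69 for Cxcr2. Repeated lowest points of Ccr6, Ifnk and Cxcr2 are at the floor.

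Interleukin receptors held 3 of the 7 genes that were higher for CE+BZA, and 3 of the 4 that were higher for BZA. Il17ra, the receptor subunit shared by several IL-17 cytokines, was at -1.65, -0.21 and -0.65 for Veh, -0.10, -0.82 and -0.25 for E2, 0.00, -0.18 and 0.99 for CE, 0.90, 0.10 and 1.13 for BZA, and 0.37, 1.92 and 1.47 for CE+BZA. All mice given CE, BZA or CE+BZA were above all Veh mice. The difference from Veh was 2.09 (SE 0.56) for CE+BZA, a 4.27-fold higher level with an FDR of 0.109 by limma, and it passed the unadjusted threshold whichever mouse was left out. For BZA, it was 1.55 (SE 0.56) and was lost without Veh mouse 7 (1.14). CE+BZA also exceeded E2, by 1.65 (SE 0.56), lost without CE+BZA mouse 2 (1.31). Il17re, its partner for IL-17C, passed in no comparison.

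Il12rb1, a receptor subunit for IL-12 and IL-23 on T cells and NK cells, was at -0.07, -2.51 and -0.76 for Veh, 0.00, -0.83 and -0.45 for E2, -0.09, -2.35 and 0.22 for CE, 0.80, 1.24 and 1.45 for BZA, and 0.93, 0.87 and 1.06 for CE+BZA. The 6 mice given BZA, alone or with CE, were the highest 6 of the 15. The difference from Veh was 2.28 (SE 0.68) for BZA and 2.07 (SE 0.68) for CE+BZA, and CE+BZA exceeded CE by 1.69 (SE 0.68). The call for BZA passed whichever mouse was left out. That for CE+BZA was lost without Veh mouse 1 (1.37), and that against CE without CE mouse 6 (0.89) or CE+BZA mouse 3 (1.64). The 12 listed of 48 T cell and NK cell markers averaged -0.05 to 0.25 for BZA, -0.36 to 0.42 for CE+BZA, and -0.65 to 0.01 for Veh. They averaged 0.05 to 0.52 for CE, where Il12rb1 did not pass against Veh, and -0.73 to 0.16 for E2. The part of these cells in the values of Il12rb1 was not tested.

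A set of 4 genes of the interleukin-1 receptor family lie in a row on chromosome 1 (Il1r2, Il1r1, Il1rl1 and Il18rap), with gaps of 99.8, 112.3 and 49.9 kb. Il1r1, the signaling receptor of IL-1, was at -0.21, -0.86 and -0.60 for Veh, -0.35, -0.75 and -0.36 for E2, -0.04, 0.08 and 1.36 for CE, 0.00, 0.20 and 1.73 for BZA, and 0.50, 1.87 and 0.77 for CE+BZA. All mice given CE, BZA or CE+BZA were above all Veh and E2 mice. CE+BZA exceeded Veh by 1.60 (SE 0.57) and E2 by 1.53 (SE 0.57), and both calls were lost without CE+BZA mouse 2 (1.19 and 1.12).

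The 3 highest mice for Il1r1, CE+BZA mouse 2, BZA mouse 4 and CE mouse 3, were also the 3 highest for the mean of 13 listed of 27 acute-phase proteins, at 1.84, 1.50 and 2.35. The other mice had means between -0.79 and 0.69 for that list. The list also holds Ltf and Lcn2, which neutrophils express. Its part in the differences of Il1r1 between groups was not tested.

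Il1rl1, the receptor of IL-33 on mast cells, type 2 lymphocytes and regulatory T cells, was at its floor of 0.00 in 9 mice, among them all 3 CE+BZA mice. It was at 1.77, 1.47 and 1.55 for BZA, with no mouse at the floor, and at 0.99, 0.00 and 0.00 for Veh. The 3 BZA mice were the highest of the 15. BZA exceeded Veh by 1.27 (SE 0.49), which was lost without Veh mouse 1 or Veh mouse 4 (1.10 in each case), and CE+BZA was lower than BZA by -1.60 (SE 0.49), which passed whichever mouse was left out. The highest value was 3.40 times the floor, so these groups differ only close to the floor. The departure from additivity, -1.57 (SE 0.69), was lost in 6 of 15 fits without 1 mouse, at -1.57 to -1.27.

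The decoy receptor Il1r2 reached 3.25 for CE mouse 3 and was at the floor in 8 mice, and Il18rap was between -2.79 and 1.36. Neither passed in any comparison. Il1rn, the secreted antagonist of IL-1, was at 1.46, 0.14 and 0.05 for Veh, 1.24, 0.06 and 1.07 for CE, and -1.51, -0.54 and -0.20 for CE+BZA. CE+BZA lay below both other groups without overlap, by -1.30 (SE 0.55) from Veh and by -1.54 (SE 0.55) from CE. The call against Veh was lost without Veh mouse 7 (-0.84) or CE+BZA mouse 1 (-0.92), and that against CE without CE+BZA mouse 1 (-1.16).

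The single interleukin was Il1f9, now called IL-36 gamma, a ligand of the IL-1 family made by epithelia and macrophages. It was at 1.99, 0.55 and 0.00 for Veh, -0.57, -0.66 and -0.43 for E2, 1.15, 0.41 and 1.75 for CE, 0.00, -0.87 and -0.79 for BZA, and -0.19, 0.67 and -1.76 for CE+BZA. E2 lay below all Veh mice, whereas CE lay in the range of Veh. E2 and BZA were both lower than Veh by -1.40 (SE 0.64). CE+BZA was lower than CE by -1.53 (SE 0.64). These calls were lost in 8, 9 and 3 of 15 fits without 1 mouse, at -1.54 to -0.83, -1.55 to -0.83, and -1.51 to -0.86, the last also without CE mouse 3 (-1.21).

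Il13ra2, a decoy receptor for IL-13, was at 1.33, 0.59 and 0.42 for BZA and at 0.32, -2.04 and -1.19 for CE+BZA. The groups did not overlap, and CE+BZA was lower by -1.75 (SE 0.74), a call lost in 4 of 15 fits without 1 mouse, at -1.84 to -1.21. Il28ra, the interferon lambda receptor of epithelia, was at -1.50, -1.69 and -1.69 for E2, where 2 mice were at the floor, and at 0.29, -0.96 and 0.24 for CE+BZA. CE+BZA exceeded E2 by 1.48 (SE 0.67), lost in 6 of 15 fits, at 1.26 to 1.55. The median difference from Veh of the 10 receptors was 0.21 for E2, 1.04 for CE, 1.04 for BZA and 0.72 for CE+BZA, against 0.00, 0.06, 0.11 and 0.08 for all genes. The value for CE was 0.34 without CE mouse 3, and that for BZA was 0.51 without Veh mouse 4. The lowest value for E2 with 1 mouse left out was -0.03, and for CE+BZA it was 0.49.

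**Figure D4:**
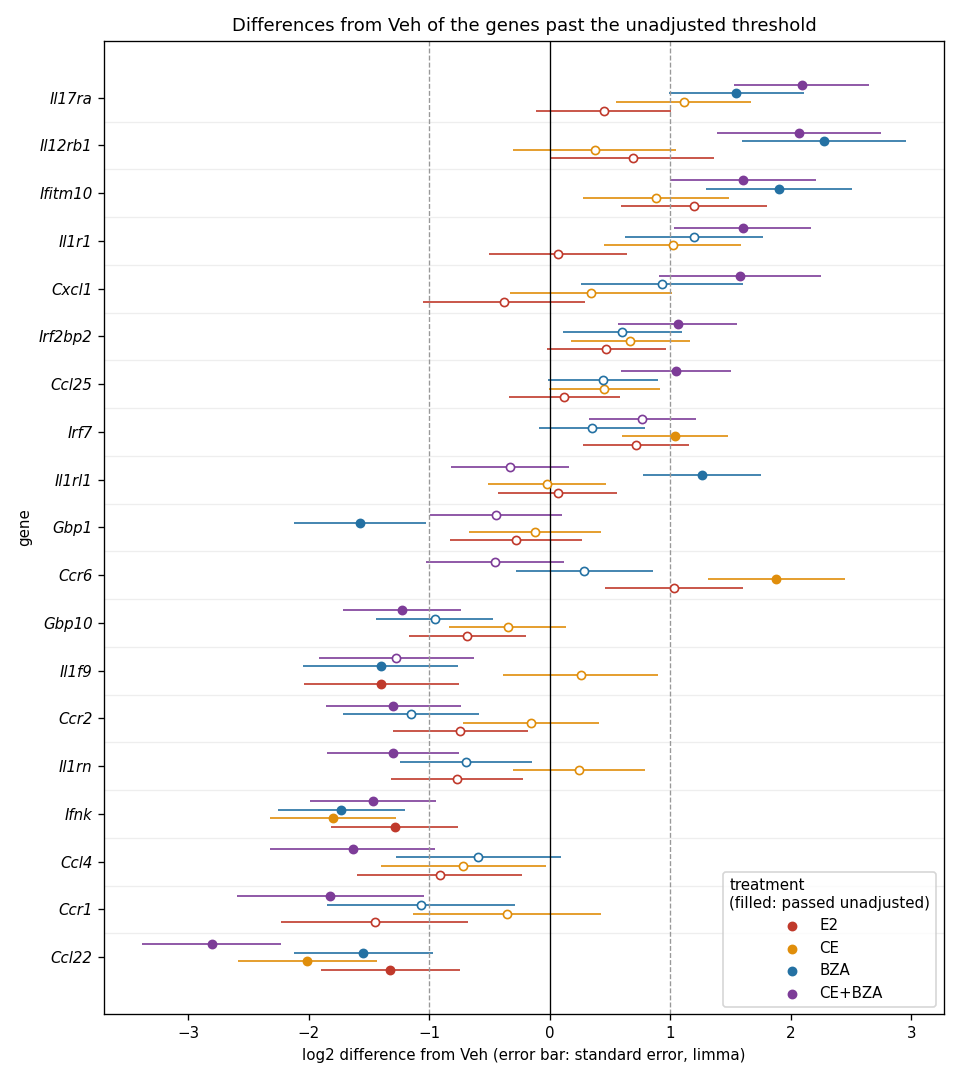
Log2 difference from Veh (horizontal axis) with its standard error for the 19 genes that passed the unadjusted threshold in at least 1 treatment, with filled points for the treatments that passed and dashed lines at a fold change of 2. All 4 points are filled and left of -1 for Ccl22 and Ifnk, and for Il17ra and Il12rb1 the BZA and CE+BZA points are filled and right of 1.

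TNF ligands and receptors passed in no comparison with Veh. Tnf itself was at 1.0, -1.98 and -1.98 for Veh, 0.71, -0.23 and 1.85 for CE, and 0.00, -1.98 and 0.53 for CE+BZA, with the floor at -1.98. The Veh mice alone spanned most of the range, and the difference from Veh was 1.76 (SE 0.88) for CE and 0.51 (SE 0.88) for CE+BZA. Tnfsf15, a TNF ligand that co-stimulates T cells, was at 2.11, 0.17 and 2.73 for CE and at its floor of 0.00 in all 3 CE+BZA and all 3 E2 mice. It was lower for CE+BZA than for CE by -1.67 (SE 0.64), and the call was lost without CE mouse 7 (-1.45) or CE mouse 3 (-1.14). Tnfsf8, the ligand of CD30, was at the floor in all 3 CE+BZA mice and did not pass.

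Of the receptors, Tnfrsf10b, the death receptor for TRAIL, was at 0.77, 0.46 and 0.33 for Veh, 0.72, -0.48 and -1.74 for E2, -0.47, -2.00 and 1.46 for CE, -0.996, 0.08 and -0.03 for BZA, and 0.12, 0.00 and -0.62 for CE+BZA. The BZA and CE+BZA mice were all below the Veh mice, but the differences of -0.83 (SE 0.75) and -0.69 (SE 0.75) did not pass. Tnfrsf4, the co-stimulatory receptor OX40 of T cells, differed by -1.17 (SE 0.56) for E2 and by -0.28 (SE 0.56) for CE+BZA, neither of which passed.

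The interferon Ifnk, interferon kappa, is a type I interferon known from keratinocytes. Its values were 1.25, 1.84 and 1.22 for Veh, 0.54, 0.45 and -0.54 for E2, -0.54, 0.00 and -0.54 for CE, -0.54, 0.20 and -0.54 for BZA, and -0.54, -0.54 and 0.99 for CE+BZA, with the floor at -0.54. All 12 treated mice lay below all Veh mice, and 7 of them were at the floor. The difference from Veh was -1.28 (SE 0.53) for E2, -1.80 (SE 0.53) for CE, -1.73 (SE 0.53) for BZA, and -1.47 (SE 0.53) for CE+BZA, and -1.57 (SE 0.42, FDR 0.114 by limma) for the mean of the 4. The call for E2 was lost without Veh mouse 1 (-1.08) or E2 mouse 5 (-0.94), and that for CE+BZA without Veh mouse 1 (-1.26), CE+BZA mouse 1 (-1.21), or CE+BZA mouse 2 (-1.21).

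For additivity, Ifnk passed the threshold at 2.06 (SE 0.74), but this is no result about the gene. The Veh mean of 1.44 could fall by 1.98 at most before the floor, whereas the differences for CE and BZA sum to -3.53, so that the floor alone fixes a departure of at least 1.55. Its highest value was 5.22 times the floor. The gene also lies within the span of Mob3b, which is read from the other strand, and reads of the 2 genes cannot be told apart if strand was not used.

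Irf7, the regulator that amplifies type I interferon production, was at -0.99, -0.37 and -0.15 for Veh, 0.25, 0.48 and -0.09 for E2, 0.65, 0.16 and 0.80 for CE, -0.22, -0.23 and 0.00 for BZA, and -0.14, 0.47 and 0.48 for CE+BZA. All E2, CE and CE+BZA mice were above all Veh mice. It passed for CE (1.04, SE 0.44), but not without Veh mouse 7 (0.79), CE mouse 7 (0.98), or CE mouse 3 (0.91). Irf7 overlaps Phrf1 on the other strand. Irf2bp2 was higher for CE+BZA by 1.06 (SE 0.49), at 0.30, 0.63 and 0.71 against -1.0, -0.23 and -0.31, and its call was lost in 8 of 15 fits without 1 mouse, at 0.82 to 1.20.

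Of the guanylate-binding proteins, which interferon induces, Gbp1 was at -1.42, 0.01 and -2.18 for BZA and at 1.06, 0.00 and 0.07 for Veh. BZA mouse 1 overlapped Veh, and the difference of -1.57 (SE 0.55) was lost without BZA mouse 4 (-1.08). Gbp10 was at -0.63, -0.37 and -0.48 for CE+BZA and at 1.41, 0.60 and 0.18 for Veh, without overlap. Its difference of -1.23 (SE 0.49) for CE+BZA was lost without Veh mouse 7 (-0.89) or CE+BZA mouse 1 (-1.16). The BZA mice, at 0.00, -0.35 and -0.32, were also all below the Veh mice, but BZA did not pass. Gbp10 shares its span and strand with Gm43302, so reads could be split between them.

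Ifitm10, a member of the interferon-induced transmembrane family by sequence, was at -0.89, -0.89 and -1.71 for Veh, 0.92, -1.01 and 0.19 for E2, 0.54, -0.72 and -0.68 for CE, 0.49, 0.00 and 1.73 for BZA, and 0.81, -0.05 and 0.55 for CE+BZA. The BZA and CE+BZA mice were all above the Veh mice. The difference was 1.91 (SE 0.61) for BZA, which passed whichever mouse was left out, and 1.60 (SE 0.61) for CE+BZA, lost without Veh mouse 4 (1.33) or CE+BZA mouse 1 (1.42). The gene taken in by its prefix, Ccrn4l, was at -0.24, -2.07 and -0.26 for CE and at 0.56, 1.08 and 1.26 for CE+BZA, and CE+BZA was higher by 1.82 (SE 0.66), lost without CE mouse 6 (1.22).

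Set against the other treatments, CE+BZA differed from CE for 7 of the 42 genes (16.7%, against 14.4% of all genes), 2 higher (7.11%) and 5 lower (7.31%). It differed from BZA for 5 (11.9% against 8.76%), 1 higher (4.32%) and 4 lower (4.44%), and from E2 for 8 (19% against 13.2%), 5 higher (7.7%) and 3 lower (5.46%). By limma, 0 of the 42 had an FDR under 0.05 in these comparisons, against 0.0393%, 0% and 0.157% of all genes. Among the lower genes were chemokine receptors, with Ccr6 and Ccr7 lower than for CE, Ccr3 lower than for BZA, and Ccr3 and Ccr6 lower than for E2. Over the 7 receptors, the median difference of CE+BZA was -1.14 from CE, -0.74 from BZA and -0.56 from E2, against 0.00, 0.01 and 0.17 for all genes. The first of these rested on CE mouse 3, without which it was -0.45, and with any other mouse left out it was -1.64 to -1.06. The median against E2 was -0.28 without E2 mouse 4 and -1.11 without E2 mouse 5. Quantile normalization moved the median of all genes for CE+BZA against E2 to 0.03.

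Single mice moved these counts too. Against BZA, 2 genes passed without BZA mouse 3, 3 without BZA mouse 1, and 3 without CE+BZA mouse 2. Against E2, 5 passed without CE+BZA mouse 2 and 5 without CE+BZA mouse 3. Ccl22 was lower for CE+BZA than for BZA by -1.26 (SE 0.58) and than for E2 by -1.48 (SE 0.58), with overlapping groups. The former was lost in 6 of 15 fits without 1 mouse, at -1.26 to -0.79, and the latter without E2 mouse 5 (-1.16) or CE+BZA mouse 3 (-1.01).

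Additivity of CE and BZA was departed from by 4 of the 42 genes (9.52%, against 12.3% of all genes) at the unadjusted threshold, 1 higher than the sum (6.05%) and 3 lower (6.21%), and by 0 at an FDR under 0.05 (0.118% of all genes; limma). Without Veh mouse 1, CE mouse 3, or CE+BZA mouse 1, 2 genes did so. Any difference among the 5 groups passed at an unadjusted p under 0.05 for 9 of the 42 genes (21.4%, against 16.5% of all genes) and at an FDR under 0.05 for 0 (0.472% of all genes; limma F-test).

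The genes that relay cytokine signals were described from a list of 86 genes of cytokine signaling and the NF-kappaB response, of which the table holds 18. By the unadjusted threshold, 2 were higher for E2, 3 for CE, 1 for BZA and 4 for CE+BZA, and 0 were lower in any of these (against 6.52%, 10.1%, 8.92% and 11.6% of all genes higher). The count for CE+BZA was 7 without CE mouse 3 and 1 without CE+BZA mouse 2 or 3, and that for CE was 1 without CE mouse 3. The list averaged -0.66 to -0.49 in the Veh mice, below every treated mouse, the lowest of which was CE+BZA mouse 1 at -0.36. For the mean of the 4 treatments, the median difference from Veh was 0.74 over the 18 genes, against 0.29 over all genes. The 18 include Csf3r, which is in the neutrophil list too. Socs3, a feedback inhibitor that IL-6 induces through STAT3, was at -0.57, -0.87 and -0.66 for Veh and at 0.00, 1.39 and 1.32 for CE+BZA, a difference of 1.60 (SE 0.62). The call was lost without Veh mouse 1, CE+BZA mouse 2 or CE+BZA mouse 3. Zfp36, which destabilizes the mRNA of Tnf and other cytokines, was higher for CE+BZA by 1.36 (SE 0.47), which passed whichever mouse was left out. Socs2, an inhibitor of growth hormone signaling, was higher for E2 (1.57, SE 0.58) and CE (2.21, SE 0.58), and at -0.30 (SE 0.58) for BZA and -0.63 (SE 0.58) for CE+BZA it did not pass. Its call for E2 was lost without Veh mouse 1 or E2 mouse 3, and that for CE passed whichever mouse was left out.

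Of 70 other interferon-stimulated genes, 4 were in the table (Slfn1, Slfn3, Slfn4 and Ly6e). At the unadjusted threshold, 3 of them were higher for CE, 1 for E2, and 0 for BZA or CE+BZA, and Slfn3 was lower for BZA (against 10.1%, 6.52%, 8.92% and 11.6% of all genes higher, and 7.47% lower for BZA). Without CE mouse 3, the count higher for CE was 1 (Ly6e) and that for CE+BZA was 2 (Slfn1 and Ly6e). Slfn4, which myeloid cells express, was at 4.59 for CE mouse 3 and at 1.62 and 0.00 in the other CE mice. Ly6e was at 0.38, 0.00 and 0.90 for CE and at -1.67, -0.70 and -0.52 for Veh, without overlap. It was at -0.04, 0.69 and 0.26 for E2, -0.205, -0.31 and 0.50 for BZA, and -0.33, 0.43 and 0.09 for CE+BZA. All 12 treated mice thus lay above all 3 Veh mice (1.26% of all genes). The difference from Veh was 1.27 (SE 0.49) for E2 and 1.39 (SE 0.49) for CE. At 0.96 (SE 0.49) for BZA and 1.03 (SE 0.49) for CE+BZA, it did not pass. The MHC class II list had 1 of its 11 genes in the table, Ciita, which passed in no comparison.

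**Figure D5:**
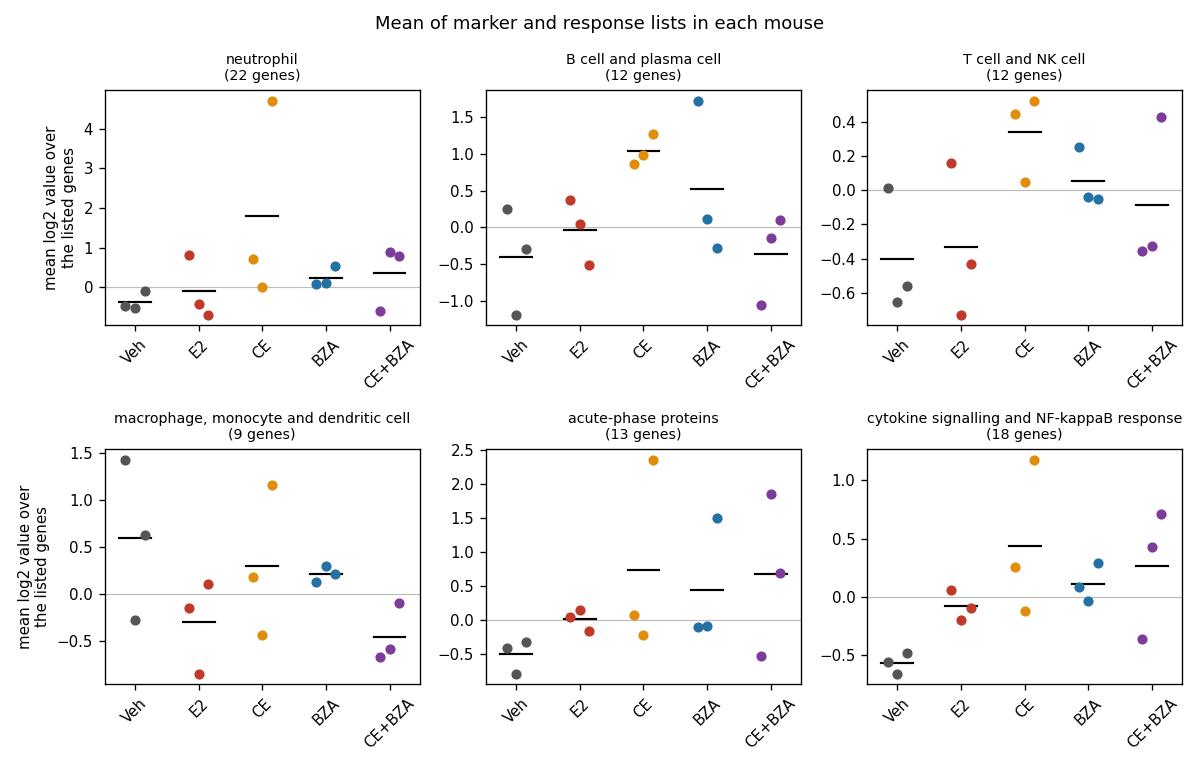
Mean log2 value over the listed genes of 6 marker and response lists in each mouse (points) with the group mean (bar). CE mouse 3 stands at 4.70 in the neutrophil panel, the 3 CE mice (0.86 to 1.27) are above the Veh and CE+BZA mice in the B cell panel, and the 3 Veh mice are the lowest in the cytokine signaling panel.

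Without CE mouse 3, 53 of the 58 differences that passed the unadjusted threshold for single genes still did. The 5 that were lost were Irf7 for CE against Veh, Il1f9 and Tnfsf15 for CE+BZA against CE, and Ccr7 and Il1rl1 for additivity. Cxcr2, Il1r2, Ccr1 and Ccr2, whose highest values were all in that mouse, had passed in no comparison that involved CE, and the differences of Ccr1 and Ccr2 between CE+BZA and Veh involve that mouse only through the shared estimate of the spread.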

How the data were processed

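Liver mRNA of 15 mice (5 groups of 3) was sequenced. Reads had been trimmed and mapped with TopHat, after which the authors quantified genes in StrandNGS with DESeq normalization; the submitters' processing notes name CASAVA 1.8.2. The values are log2 values that the authors deposited relative to the median of each gene, for a selected 2545 genes; the filter, the read depth, the strand setting and, in the sources used here, the form of the floor are not given. Columns were matched to mice by name, and 0 pairs of mice had identical values. The study housed its mice individually and calls the 3 samples of a group biological replicates. The labels do not say more on the independence of the mice, so p-values measure the spread between these 15 samples.

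All 2545 genes of the 15 mice entered 1 linear model of the 5 groups in limma 3.58.1 in R 4.3.3 (lmFit, contrasts.fit, eBayes), without pseudocount or filter, and p-values were adjusted by Benjamini-Hochberg. Counts are of genes past a 2-fold difference with the FDR, or the unadjusted p, under 0.05. The fit was tested on simulated data. Alternatives were quantile normalization, median centering, leaving out genes at the floor or with low values, a mean-variance trend, no shrinkage, a replicate block, a fit of the compared groups alone, no threshold on the fold change, and leaving out each mouse. Leaving out CE mouse 3 and BZA mouse 3 together was added after seeing the data. Same-numbered mice deviated from their group means with correlations of -0.05 to 0.10 (13 pairs, 0 over 0.1), so the numbers were not taken as pairs.

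The 42 genes and all marker and pathway lists were chosen with earlier results of these data known. Named with values were the genes past the unadjusted threshold in any comparison, those with an unadjusted p under 0.05 in the F-test, and those of each class with the smallest F-test p or the 2 largest ranges of group means; for lists, up to 4 genes with the smallest F-test p. Other genes are named to account for every member. Positions and overlaps came from GENCODE M21 (GRCm38; 41 of 42 placed), and promoters from RefSeq; motifs and plots were made with Python 3.11.15, pandas 2.3.3, numpy 2.4.6 and matplotlib 3.10.9.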

Additional observations from a re-analysis of the deposited data

How the results depend on the processing

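Counts of the 42 genes past the unadjusted threshold are given here under the alternatives that moved them by more than 1.5 times. With a mean-variance trend, the 3 genes for E2 became 5. Without the genes at the floor, the 4 for CE became 2, the 8 for CE+BZA against E2 became 5, and the 4 for additivity (Ifnk, Ccr6, Ccr7 and Il1rl1) became 1. With only the groups compared in the fit, the 7 for CE+BZA against CE became 4. Without CE mouse 3 and BZA mouse 3 together, an alternative chosen after seeing the data, the 5 for CE+BZA against BZA became 3, and the 4 for additivity became 2. The 14 for CE+BZA against Veh stayed within that bound there, at 16. At an FDR under 0.05 (limma), 1 gene (Ccl22) passed for CE+BZA against Veh after quantile normalization, after median centering, without the genes at the floor, or with a mean-variance trend, and 1 gene passed for the mean of the 4 treatments without the genes at the floor. The causes were not tested. Leaving out 1 mouse at a time gave 2 to 6 genes for E2, 3 to 8 for CE, 6 to 15 for CE+BZA against Veh (0 to 1 at an FDR under 0.05), 6 to 8 for the mean of the 4 treatments, 2 to 7 for CE+BZA against BZA, 5 to 9 for CE+BZA against E2, and 2 to 6 for additivity. The other counts stayed within 1.5 times, 459 of 494 in all.

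With the replicate block (the replicate number as a factor), the counts were 0 for E2, 5 for CE+BZA against Veh, 2 for CE+BZA against BZA and 4 for CE+BZA against E2, and 24 of the 58 single-gene differences still passed. The numbers pair no mice in the labels or in the data, so this is not a paired analysis. Over all alternatives, 1179 of 1367 single-gene results passed as before, 188 did not, and 0 changed direction. With 3 mice a group and low values at a floor, differences of genes near it (Ifnk, Il1rl1, Ccr3, Ccr6, Tnfsf8, Tnfsf15) are imprecise.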

Other observations

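Outside the 42 genes, Gpnmb, a macrophage gene of lipid-laden tissue, was at 1.07, 0.00 and 0.77 in Veh and at -2.33, -1.15 and -1.36 in CE+BZA, a difference of -2.23 (SE 0.67, FDR 0.142 by limma) without overlap. In CE, Gpnmb was at -1.21, -1.56 and 0.19, and its difference of -1.47 (SE 0.67) from Veh also passed the unadjusted threshold. In E2 it was at -0.12, -0.63 and 0.24, and in BZA at 0.36, 3.03 and 1.18, and neither passed. The immunoglobulin gene Ighg2c was at -0.90, -2.35 and -1.11 in Veh, 1.11, 1.13 and 3.04 in CE, and -2.90, -1.13 and 0.28 in CE+BZA. In BZA, Ighg2c was at 3.06, 0.00 and 1.05, and in E2 at 0.04, -0.12 and -0.49. Its difference from Veh was 3.21 (SE 0.84, FDR 0.145 by limma) for CE and 2.82 (SE 0.84, FDR 0.202 by limma) for BZA. It was 1.26 (SE 0.84) for E2 and 0.20 (SE 0.84) for CE+BZA.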
